A study of Mus musculus with 16 samples.

Results

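Protocadherins are cell adhesion proteins of the cadherin superfamily. All genes whose mouse symbol starts with Pcdh were taken, which gave 70 of the 33289 genes in the deposited table of brain expression values. They fall into 58 clustered genes, with 14 in the alpha cluster (Pcdha), 22 in the beta cluster (Pcdhb) and 22 in the gamma cluster (Pcdhg), and 12 unclustered genes. The RNA came from hemi-brains of C57BL/6J mice that were 3 to 4 months old, perfused with PBS 8 h after an injection of saline or of lipopolysaccharide (LPS), a bacterial cell wall component that sets off systemic inflammation. There were 4 libraries in each of 4 groups: wild type with saline, wild type with LPS, Lcn2-/- with saline and Lcn2-/- with LPS. Lcn2 encodes lipocalin-2, a secreted protein of the acute inflammatory response, and the series asks about its part in the brain during inflammation. No label gives the LPS dose, the deleted part of Lcn2 or the cells in which it is deleted.

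Lcn2 transcript was present after LPS in the libraries labelled Lcn2-/-. It stood there at 40.2, 34.1, 38.3 and 37.2 RPKM, against 71.5, 67.8, 66.7 and 82.7 RPKM in wild type after LPS. After saline all values were below 0.5 RPKM, at 0.132, 0.204, 0.351 and 0.247 under the Lcn2-/- label and 0.065, 0.074, 0.204 and 0.137 in wild type. The genotype is therefore given below as a label. Values are log2 RPKM, the base-2 logarithm of reads per kilobase of transcript, scaled to sequencing depth, after the authors' conditional quantile normalization, and no read counts were analysed, so the depth of each library is unknown. In 15 libraries, 16372 to 16497 genes reached 0.5 RPKM, while saline replicate 4 labelled Lcn2-/- had 17112. Neuronal markers summed to 1198 to 1274 RPKM over the libraries, with all 10 markers above the filter, which fits the brain label. A gene was tested if it reached 0.5 RPKM in at least 3 libraries, and 64 of the 70 protocadherins did: all 14 alpha, 17 of 22 beta, all 22 gamma and 11 of 12 unclustered genes.

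Clustered protocadherins are known for giving single neurons a surface identity. Each neuron expresses a small set of isoforms, chosen by promoter choice that depends on CTCF, cohesin and DNA methylation, and matching isoforms on facing membranes bind each other and underlie self-avoidance of sister neurites. Alpha and gamma isoforms are built from 1 large variable exon spliced to 3 constant exons that all genes of the cluster share, whereas each beta gene is a single exon. Unclustered protocadherins are separate genes that mostly encode delta protocadherins, with roles in cell sorting, axon growth and synapse formation. Delta-1 members include Pcdh1, Pcdh7, Pcdh9 and Pcdh11x, and delta-2 members include Pcdh8, Pcdh10, Pcdh17, Pcdh18 and Pcdh19.

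The promoters of Pcdh10, Pcdh18 and Pcdh20, 3 of the 4 unclustered genes that fell after LPS under both genotype labels, are shown, since these genes share a direction without sharing exons. Of the 70 protocadherins, 9 unclustered genes matched an entry in the RefSeq promoter table (GRCm38.p6), and the 250 bases before the start are printed for Pcdh10 at chr3:45378148-45378397 on the plus strand, Pcdh18 at chr3:49757317-49757566 on the minus strand and Pcdh20 at chr14:88471397-88471646 on the minus strand. Capitals mark the CCAAT box (CCAAT, or ATTGG on the other strand).
Pcdh10: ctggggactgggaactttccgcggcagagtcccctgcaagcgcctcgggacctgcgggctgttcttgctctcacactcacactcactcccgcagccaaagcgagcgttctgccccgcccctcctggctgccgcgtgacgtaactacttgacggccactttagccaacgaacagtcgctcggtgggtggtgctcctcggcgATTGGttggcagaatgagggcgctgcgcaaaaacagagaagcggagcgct
Pcdh18: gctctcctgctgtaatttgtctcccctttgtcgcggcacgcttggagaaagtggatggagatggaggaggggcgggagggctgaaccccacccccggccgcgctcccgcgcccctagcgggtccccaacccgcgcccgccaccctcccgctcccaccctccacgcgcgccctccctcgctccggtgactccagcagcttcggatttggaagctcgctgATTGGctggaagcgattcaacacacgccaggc
Pcdh20: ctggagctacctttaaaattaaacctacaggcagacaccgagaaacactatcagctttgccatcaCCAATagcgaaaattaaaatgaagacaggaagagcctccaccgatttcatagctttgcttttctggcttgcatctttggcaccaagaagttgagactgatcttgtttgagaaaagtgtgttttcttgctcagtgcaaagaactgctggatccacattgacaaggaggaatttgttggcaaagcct

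The 3 windows had little in common beyond that box. Those of Pcdh10 and Pcdh18 were rich in G and C, at 63.2% and 68.0%, with 22 and 23 CpG dinucleotides, and each held 1 GC box (GGGCGG on either strand). The Pcdh20 window had 42.4% G and C, 3 CpG dinucleotides and no GC box. The CCAAT box began 50, 32 and 185 bases before the start in Pcdh10, Pcdh18 and Pcdh20. None of the 3 held the TATA box letters TATAAA on either strand. Across the 9 genes, 8 held a CCAAT box, 4 a GC box and 2 a TATA box, whereas 33.8%, 32.7% and 12.4% of all 32851 promoters of that length held them, and the median promoter had 52.4% G and C. A match of these letters is a description of the sequence and not a binding site.

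Expression differed in kind between the 4 classes. Mean levels in RPKM, here and below, are geometric means, taken back from the mean of log2 RPKM. Gamma genes were the highest and most even, with mean log2 RPKM over the 16 libraries between 5.58 for Pcdhgb1 and 6.37 for Pcdhga5, or 47.9 to 82.8 RPKM, a 1.73-fold span. Alpha genes lay between 11.2 RPKM for 1 of the 2 identifiers that carry the symbol Pcdha11 (ENSMUSG00000102206) and 23.2 RPKM for Pcdha12, a 2.08-fold span. Beta genes were low and uneven, from 0.012 RPKM for Pcdhb1 to 2.16 RPKM for Pcdhb20, a 181-fold span. Unclustered genes ran from 0.044 RPKM for Pcdh12 to 15.2 RPKM for Pcdh1, a 345-fold span, so even the highest of them, at a log2 RPKM of 3.92, was below the median alpha gene at 4.17. Alpha and gamma values may hold reads of a whole cluster, so their levels and evenness need not be those of single isoforms.

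**Figure D1:**
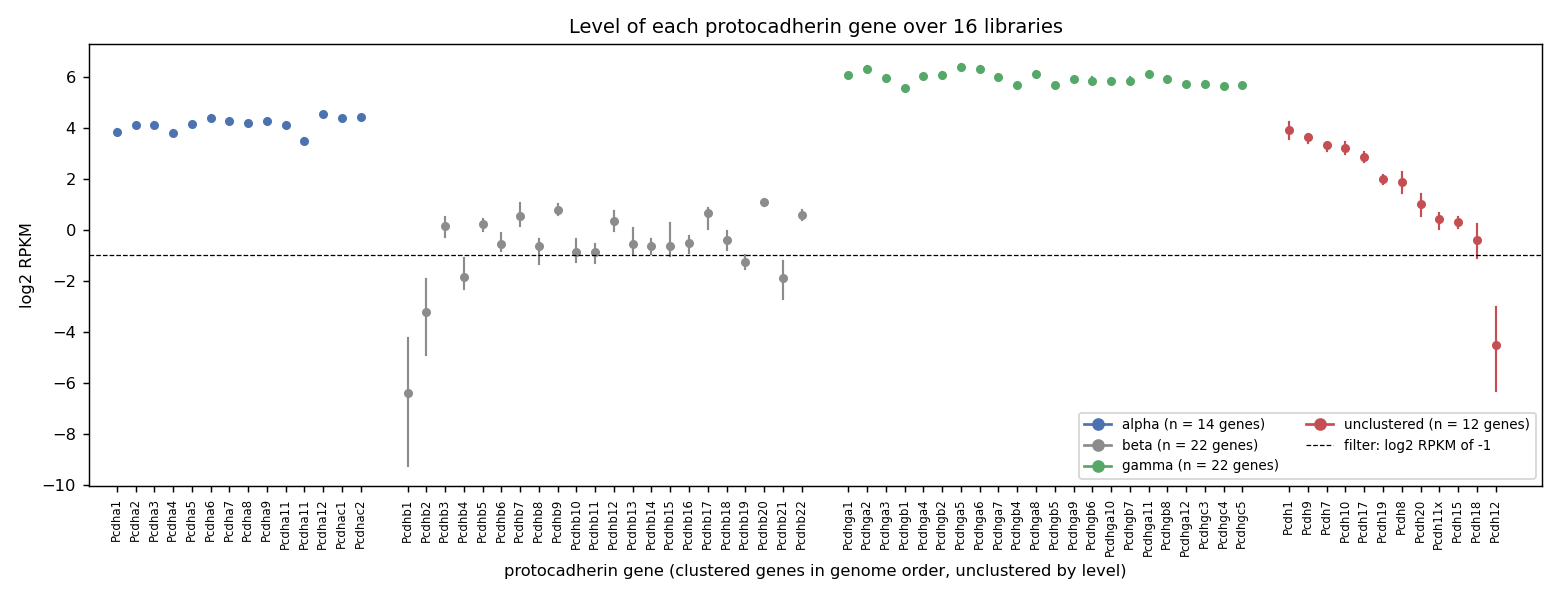
Level of each protocadherin in log2 RPKM, with the mean over 16 libraries as a point and the lowest to highest library as a line, for genes of the alpha, beta and gamma clusters in genome order and unclustered genes by level; the dashed line is the filter at a log2 RPKM of -1. Gamma genes form a narrow band between 5.58 and 6.37 and alpha genes one between 3.49 and 4.54, while beta and unclustered genes scatter over a wide range.

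The annotation assigns exons of the alpha and gamma clusters to many genes at once. The 3 clusters lie on the plus strand of mouse chromosome 18 in mm10: alpha from 36930184 to 37187661, beta from 37264938 to 37524479 and gamma from 37661793 to 37841873. Every alpha gene overlapped the exons of the other 13 alpha genes, and 38.0% to 54.9% of its exonic bases (median 53.4%, 2860 bases) were also exonic in another protocadherin gene. Every gamma gene overlapped the other 21 gamma genes, at 27.8% to 66.8% of its exonic bases (median 44.7%, 2119 bases). The 22 beta genes were single exons, and 20 of them shared no base with another protocadherin. Pcdhb21 and Pcdhb22 overlapped at 9.67% and 6.88% of their bases. Unclustered genes shared none. No label says how reads in a shared exon were counted, so a value for 1 alpha or gamma gene may hold reads of its whole cluster, and these genes are not independent measurements.

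Alpha and gamma genes also moved as blocks from library to library. Relative to each gene's own mean, all 14 alpha genes lay on the same side in 10 of the 16 libraries, and all 22 gamma genes did in 6. The tested beta genes did so in 0 libraries and the tested unclustered genes in 1. In wild type saline replicate 1, for example, the 14 alpha genes were 0.069 to 0.083 above their means, and in replicate 3 they were 0.0098 to 0.049 below. The median spread of the alpha genes within a library was 0.040 and that of the gamma genes 0.060, while the tested beta genes spread over 0.57 and the unclustered over 0.47. Beta genes were also much lower in level, and the part of level in these spreads was not tested. The widest spread for alpha, 0.16, and for gamma, 0.23, was in saline replicate 4 labelled Lcn2-/-. Over all 16 libraries no alpha gene ranged over more than 0.22 and no gamma gene over more than 0.23 log2 units, against a median range of 0.78 among the beta genes and 0.54 among the unclustered.

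**Figure D2:**
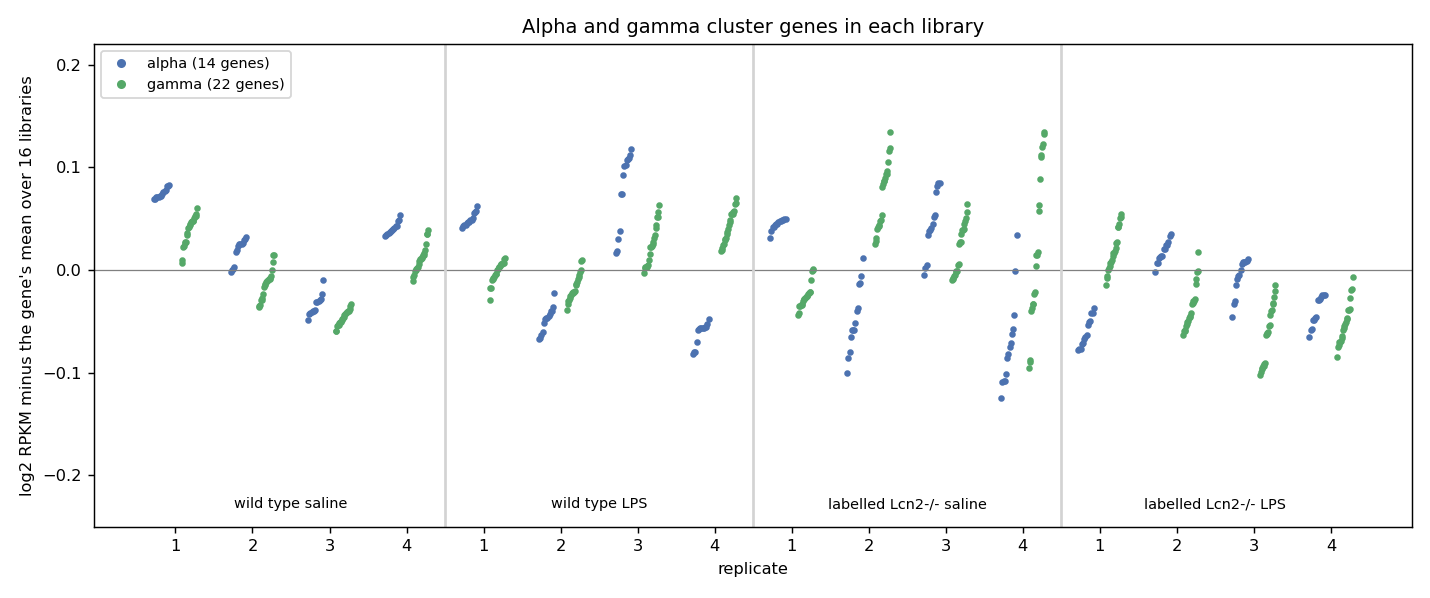
Deviation of each of 14 alpha and 22 gamma genes from its own mean over 16 libraries (vertical axis, log2 RPKM), by library and group (horizontal axis), with the genes of a cluster sorted by value within a library. Genes of a cluster sit close together in most libraries; saline replicate 4 labelled Lcn2-/- has the widest spread, 0.16 for alpha and 0.23 for gamma.

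Saline replicate 4 labelled Lcn2-/- stood apart for many protocadherins. Set against the other 3 libraries of its group, it was below all of them for 10 of 14 alpha genes, by 0.082 to 0.15 from their mean. It was above all of them for 10 of the 17 tested beta genes, by 0.097 to 0.87, and below for 3. Of the gamma genes, 8 were above and 5 below. Of the tested unclustered genes, 2 were above and 5 below, with Pcdh8 at 1.44 against 2.03 to 2.26. The title of this sample alone ends in a letter, whose meaning is not given, and the calls and values below that it moves most are also given without it.

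Among the C-type genes, which sit at the 3′ end of the variable exons and are expressed more broadly than the stochastically chosen isoforms, Pcdhac1 and Pcdhac2 averaged 21.1 and 21.4 RPKM. Pcdhgc3, Pcdhgc4 and Pcdhgc5 averaged 53.5, 49.6 and 50.8 RPKM, inside the range of the other gamma genes. All these C-type values may hold reads of the whole cluster, so they need not give the level of a single isoform. Among beta genes the order of the highest 5 was Pcdhb20 at 2.16, Pcdhb9 at 1.73, Pcdhb17 at 1.57, Pcdhb22 at 1.5 and Pcdhb7 at 1.47 RPKM. Only the first step was clear: Pcdhb20 was above Pcdhb9 in 16 of 16 libraries, whereas Pcdhb9 was above Pcdhb17 in 13, Pcdhb17 above Pcdhb22 in 10 and Pcdhb22 above Pcdhb7 in 8. The 5 beta genes that were not tested were Pcdhb1, Pcdhb2, Pcdhb4, Pcdhb19 and Pcdhb21.

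The unclustered genes were led by Pcdh1, a delta-1 protocadherin, at 15.2 RPKM. It was followed by Pcdh9 at 12.4, Pcdh7 at 9.998 and Pcdh10 at 9.24 RPKM, and then by Pcdh17 at 7.25 RPKM, which takes part in synapse development in corticobasal ganglia circuits. Pcdh19, an X-linked gene mutated in a female-limited epilepsy, averaged 3.99 RPKM, and Pcdh8, an activity-regulated protein also called arcadlin, 3.65 RPKM. Pcdh20 averaged 2.01, the X-linked Pcdh11x 1.36, and Pcdh15, a component of the tip links of hair cells, 1.24 RPKM. Pcdh18 averaged 0.771 RPKM, near the filter. Pcdh12, known as an endothelial protocadherin, averaged 0.044 RPKM and was not tested. Some neighbours in this order were not separated: Pcdh19 was above Pcdh8 in 10 of 16 libraries, Pcdh11x above Pcdh15 in 12, Pcdh7 above Pcdh10 in 13, and Pcdh1 above Pcdh9 and Pcdh20 above Pcdh11x in 14 each. All other neighbours kept their order in 16 of 16.

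After LPS in wild type mice, 4 unclustered protocadherins fell and no clustered one passed the test. Pcdh18, Pcdh20, Pcdh1 and Pcdh10 were called lower, 4 of 64 tested protocadherins in all, where 13.9% of all 17349 tested genes were called lower and 25.3% in either direction (limma with Benjamini-Hochberg adjustment over all tested genes, adjusted p under 0.05). Called genes made up 6.25% of the protocadherins, with 4 of 11 unclustered and 0 of 53 clustered genes. In bulk tissue, fewer cells of a type and less RNA per cell cannot be told apart. By limma's test, 0 of the 53 also passed an unadjusted p under 0.05, which 35.8% of all tested genes did.

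Pcdh1, on chromosome 18 from 38185914 to 38212053 on the minus strand, gave 4.09, 4.07, 4.05 and 3.97 in wild type saline libraries. It gave 3.78, 3.81, 3.81 and 3.77 after LPS, so every LPS library was below every saline library, as was so for 18.6% of all tested genes. The difference was -0.25 ± 0.042 (SE, n = 4 and 4, limma adjusted p = 0.00031), which left 84.1% of the saline level.

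Pcdh18, a delta-2 protocadherin on chromosome 3 from 49743296 to 49757325, gave -0.054, 0.036, 0.015 and -0.013 after saline and -0.64, -0.61, -0.39 and -0.54 after LPS. Again the groups did not overlap, and replicate 3 was the highest of the LPS libraries. The difference was -0.54 ± 0.12 (SE, limma adjusted p = 0.0023), or 68.7% of the saline level. Because the gene is low, a pseudocount of 0.5 RPKM brought the estimate to -0.34, with an adjusted p of 0.0019 by limma.

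Pcdh20, on chromosome 14 from 88464743 to 88471396, gave 1.39, 1.24, 1.29 and 1.10 after saline and 0.84, 0.77, 1.10 and 0.84 after LPS. The groups just failed to overlap, with the lowest saline and the highest LPS library both at 1.10. The difference was -0.37 ± 0.084 (SE, limma adjusted p = 0.0038), or 77.4% of the saline level. Pcdh10, on chromosome 3 from 45378398 to 45435623, is a delta-2 protocadherin that recruits the WAVE actin regulatory complex, and had the smallest fall. It gave 3.44, 3.35, 3.30 and 3.22 after saline and 3.13, 3.14, 3.18 and 3.09 after LPS, a difference of -0.19 ± 0.065 (SE, limma adjusted p = 0.039).

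The call for Pcdh10 was the least secure of the 4. It was lost when saline replicate 1, 2 or 3 or LPS replicate 1, 2 or 4 was left out, with limma adjusted p between 0.061 and 0.12. It was also lost without the trend on the mean (0.052) and with trends on GC content and length removed (0.095).

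The other 7 tested unclustered genes did not pass in wild type. Pcdh8 differed by -0.14, Pcdh17 and Pcdh15 by -0.088 each, Pcdh19 by -0.0056, Pcdh7 by 0.0027 and Pcdh9 by 0.046. Pcdh11x differed by 0.15 ± 0.088 (SE, limma adjusted p = 0.23), although its LPS libraries at 0.52, 0.54, 0.63 and 0.42 all lay above its saline libraries at 0.38, 0.39, 0.34 and 0.37, as was so for 13.8% of all tested genes. The median difference of the 11 unclustered genes was -0.088, and that of all tested genes -0.025.

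For the clusters, the limits below are on deposited values that may hold reads of the whole cluster, and they do not bound the change of a single isoform. The 95% limits of the LPS difference in wild type lay within -0.13 and 0.086 for every alpha gene and within -0.084 and 0.12 for every gamma gene. For beta genes, which are low, they reached from -0.70 to 0.68. The median differences were -0.017 for alpha, 0.051 for the 17 tested beta genes and 0.013 for gamma. The C-type genes were no exception, at -0.038 for Pcdhac1, -0.041 for Pcdhac2, 0.034 for Pcdhgc3, 0.043 for Pcdhgc4 and 0.027 for Pcdhgc5.

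**Figure D3:**
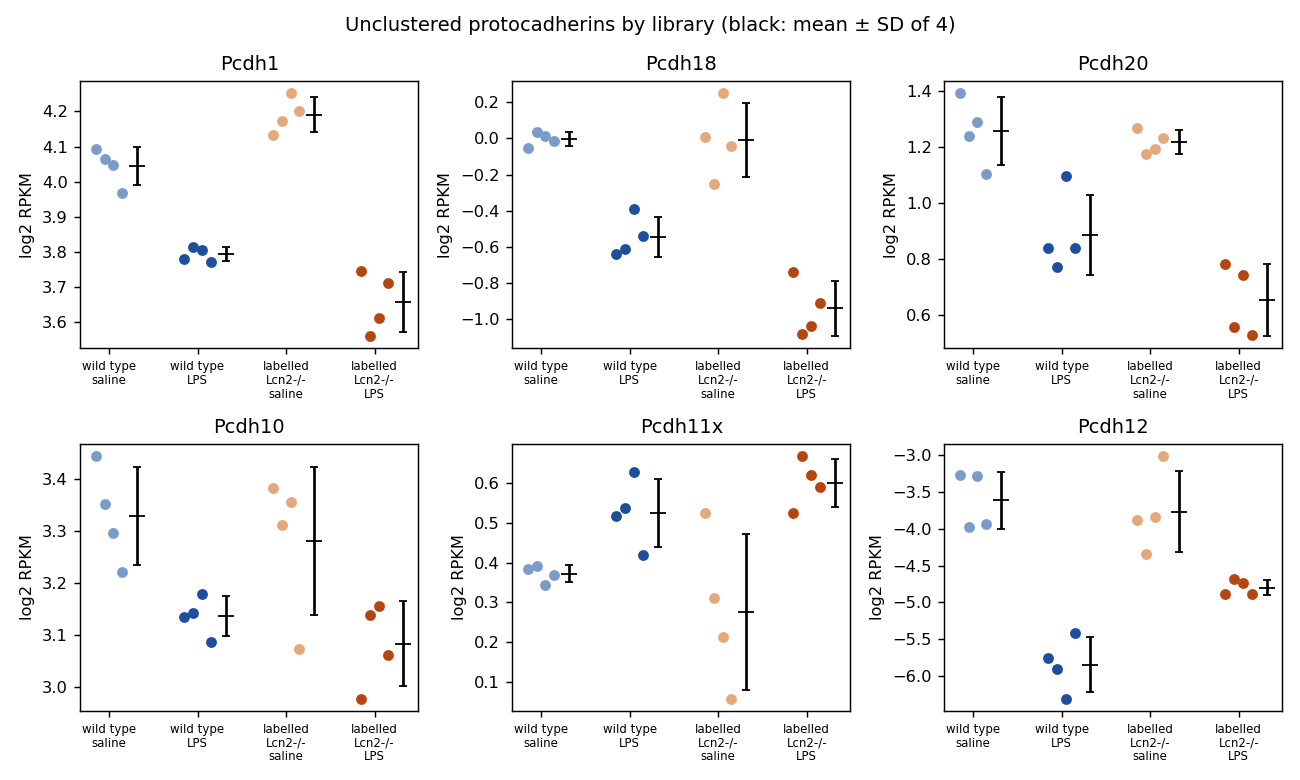
Log2 RPKM of 6 unclustered protocadherins in each of 16 libraries, by genotype label and injection, with the mean and SD of 4 libraries in black; each panel has its own vertical scale, which does not start at 0. For Pcdh1 and Pcdh18, the LPS libraries lie below all saline libraries of the same genotype label, and the lowest levels are in the LPS libraries labelled Lcn2-/-.

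In mice labelled Lcn2-/-, the same comparison gave 14 calls among the 64 protocadherins, 13 lower and 1 higher, beside 27.7% of all tested genes called lower, 20.7% called higher and 48.3% in either direction. The share of protocadherins called, 21.9%, was below that of all genes, but alpha and gamma genes are not independent measurements. By class, 5 of 11 tested unclustered genes (45.5%), 8 of 22 gamma genes (36.4%) and 1 of 17 tested beta genes (5.88%) were called. Pcdh18, Pcdh20, Pcdh1 and Pcdh10 were lower again, Pcdh11x was higher, and 8 gamma genes and 1 beta gene were lower. No alpha gene was called, 0 of 14, and 0 of them passed an unadjusted p under 0.05 by limma. That unadjusted threshold was passed by 9 of 22 gamma, 2 of 17 tested beta and 5 of 11 tested unclustered genes. Of all tested genes, 55.2% passed it.

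Pcdh1 gave 4.13, 4.17, 4.25 and 4.20 after saline and 3.75, 3.56, 3.61 and 3.71 after LPS in these mice. The groups did not overlap, and the difference of -0.53 ± 0.042 (SE, limma adjusted p = 5.8e-08) left 69.1% of the saline level. Pcdh18 gave 0.0060, -0.25, 0.25 and -0.041 after saline and -0.74, -1.08, -1.03 and -0.91 after LPS. Its groups did not overlap, and the difference of -0.93 ± 0.12 (SE, limma adjusted p = 9.2e-06) left 52.4% of the saline level. A pseudocount of 0.5 RPKM brought this estimate to -0.55.

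Pcdh20 gave 1.27, 1.18, 1.19 and 1.23 after saline and 0.78, 0.56, 0.74 and 0.53 after LPS, a difference of -0.56 ± 0.084 (SE, limma adjusted p = 5.7e-05). Pcdh10 gave 3.38, 3.31, 3.36 and 3.07 after saline and 2.98, 3.14, 3.16 and 3.06 after LPS, a difference of -0.20 ± 0.065 (SE, limma adjusted p = 0.020). The Pcdh10 groups overlapped, with saline replicate 4 among the LPS libraries. Without that library the difference was -0.27 (limma adjusted p = 0.00054). Its call was lost without saline replicate 1 (limma adjusted p = 0.064), saline replicate 3 (0.057) or LPS replicate 1 (0.066), with only the compared groups in the fit (0.065) and with GC content and length trends removed (0.097).

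Pcdh11x was the only protocadherin called higher. It gave 0.52, 0.31, 0.21 and 0.057 after saline and 0.52, 0.67, 0.62 and 0.59 after LPS, and the difference was 0.33 ± 0.088 (SE, limma adjusted p = 0.0064), or 125% of the saline level. The highest saline library and the lowest LPS library both stood at 0.52, and the groups just failed to overlap, as they did in this direction for 18.6% of all tested genes. Without saline replicate 4, its lowest library, the difference was 0.25 (limma adjusted p = 0.015). The remaining unclustered genes did not pass, with Pcdh8 at -0.19, Pcdh15 at -0.15, Pcdh17 at -0.11, Pcdh7 at 0.070, Pcdh9 at 0.091 and Pcdh19 at 0.095. For Pcdh8, this turned on the library that stood apart: without saline replicate 4 labelled Lcn2-/-, the difference was -0.36 (limma adjusted p = 0.0013). Pcdh19 was called higher with GC content and length trends removed (limma adjusted p = 0.024).

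The gamma differences were small. The 8 called genes were Pcdhga4, Pcdhga8, Pcdhga10, Pcdhga11, Pcdhgb2, Pcdhgb6, Pcdhgb7 and Pcdhgb8, and the largest difference was that of Pcdhgb7 at -0.091 ± 0.036 (SE, limma adjusted p = 0.046). Pcdhgb7 gave 5.82, 5.89, 5.84 and 5.98 after saline and 5.86, 5.79, 5.76 and 5.78 after LPS, so its groups overlapped. Pcdhga11 was 1 of 2 gamma genes, with Pcdhga8, whose groups did not overlap: it gave 6.13, 6.22, 6.19 and 6.15 after saline and 6.12, 6.08, 6.07 and 6.08 after LPS, a difference of -0.084 ± 0.028 (SE, limma adjusted p = 0.022). Among all tested genes, 23.8% had LPS libraries that all lay below the saline libraries of this genotype label. Pcdhgc3 differed by -0.088 (limma adjusted p = 0.051, and 0.049 under a stricter filter), Pcdhgc4 by -0.066 and Pcdhgc5 by 0.0035. Pcdhac1 and Pcdhac2 differed by -0.014 and -0.032.

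The called gamma genes share constant exons in the annotation, so their values may hold the same reads. Their calls also depended on single libraries and on the fit. Leaving out saline replicate 2, which had all 22 gamma genes above their means, left 0 gamma calls, as did leaving out LPS replicate 3. Leaving out LPS replicate 2 or 4 left 1 in each case, and leaving out saline replicate 4 left 3. Leaving out LPS replicate 1 gave 11. With only the compared groups in the fit, or with GC content and length trends removed, 0 gamma genes were called, and without the trend on the mean 1 was. Gamma genes had 51.0% to 55.4% G and C and alpha genes 46.5% to 49.8%. The median difference was -0.063 for the 22 gamma genes, -0.015 for the 14 alpha, -0.055 for the 17 tested beta, -0.15 for the 11 tested unclustered genes and -0.028 for all tested genes.

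Pcdhb15 was the only beta gene called. It gave -0.57, -0.57, -0.64 and 0.27 after saline and -0.87, -0.61, -1.02 and -1.02 after LPS, a difference of -0.50 ± 0.18 (SE, limma adjusted p = 0.034). The high library was again saline replicate 4, and without it the difference was -0.28 (limma adjusted p = 0.097). The call was also lost without LPS replicate 1 (0.058), 3 (0.084) or 4 (0.082), and with only the compared groups in the fit (0.11). Pcdhb20, the highest beta gene, differed by 0.14 ± 0.061 (SE, limma adjusted p = 0.070) and was called when saline replicate 1 was left out (0.019), without the trend on the mean (0.041) and with GC content and length trends removed (0.032).

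**Figure D4:**
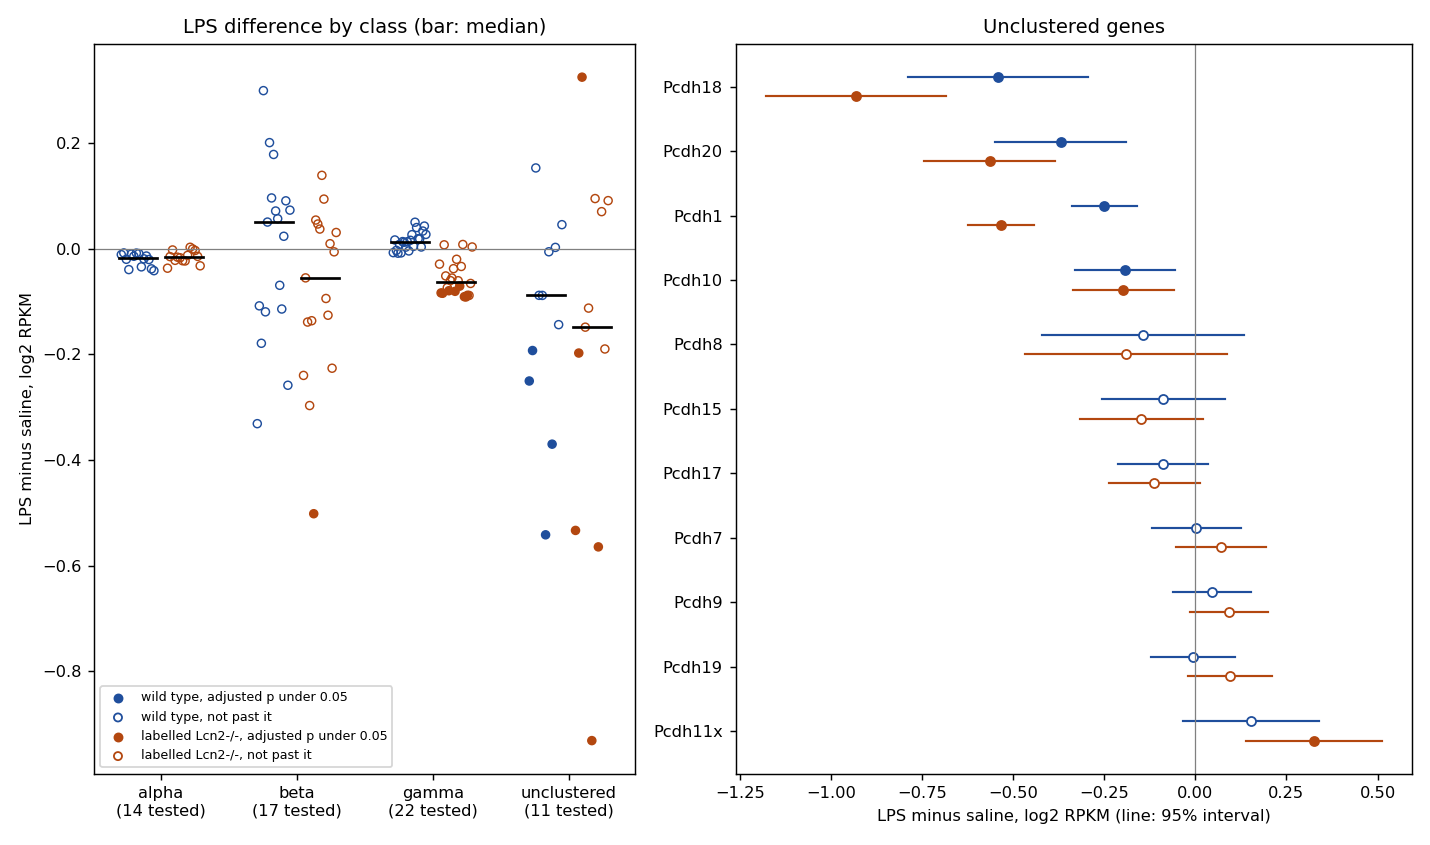
LPS minus saline in log2 RPKM for 64 tested protocadherins in wild type and in mice labelled Lcn2-/-, by class at left, with each class's median as a bar, and for the 11 tested unclustered genes at right with 95% intervals as lines; filled points have an adjusted p under 0.05. Alpha genes lie close to 0 under both labels, gamma genes shift to a median of -0.063 in mice labelled Lcn2-/-, and Pcdh18, Pcdh20 and Pcdh1 lie lowest among the unclustered genes.

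The genotype labels were then compared within each injection. These comparisons share libraries with the LPS comparisons and are no separate evidence on them. After saline, 0 of 64 protocadherins were called, beside 0.0461% of all tested genes (0.0346% higher and 0.0115% lower), and 2 passed an unadjusted p under 0.05 by limma. Those were Pcdh1, at 0.15 ± 0.042 (SE, limma adjusted p = 0.33), whose 4 libraries labelled Lcn2-/- were all above the 4 of wild type, as was so for 2.84% of all tested genes, and Pcdhb13, at 0.38 ± 0.18 (SE, limma adjusted p = 0.46). By the same count, 10.9% of all tested genes passed an unadjusted p under 0.05. Without saline replicate 4 labelled Lcn2-/-, the Pcdhb13 difference was 0.24 (limma adjusted p = 0.67) and that of Pcdh1 0.14 (0.33). The 95% limits over all alpha genes reached from -0.14 to 0.077 and over all gamma genes from -0.083 to 0.12.

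After LPS, 3 of 64 protocadherins differed between the labels, all unclustered, beside 15.8% of all tested genes (7.04% higher and 8.74% lower). Pcdh18 was lower in mice labelled Lcn2-/- by -0.39 ± 0.12 (SE, limma adjusted p = 0.031), at 76.1% of the wild type level, and Pcdh1 by -0.14 ± 0.042 (SE, limma adjusted p = 0.039), at 91.0%. Pcdh19 was higher, giving 2.03, 2.15, 2.17 and 2.09 against 1.95, 1.82, 1.92 and 2.03 in wild type, a difference of 0.18 ± 0.054 (SE, limma adjusted p = 0.038). None of these 3 genes had overlapping groups, although the highest wild type and the lowest Lcn2-/- library of Pcdh19 both stood at 2.03. Among all tested genes, 14.7% had no overlap with the Lcn2-/- label lower and 13.3% with it higher, so a lack of overlap was common in this comparison. With a pseudocount of 0.5 RPKM the Pcdh18 difference was -0.21 (limma adjusted p = 0.049). Pcdh20 differed by -0.23 ± 0.084 (SE, limma adjusted p = 0.071), and 0 of 53 clustered genes were called, with 4 gamma genes at an unadjusted p under 0.05 by limma, which 31.1% of all tested genes passed.

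All 3 calls after LPS were near the threshold. Without the filter on low values, none of the 3 passed (limma adjusted p = 0.067 for Pcdh1, 0.057 for Pcdh18 and 0.070 for Pcdh19). Pcdh1 lost its call without wild type LPS replicate 1, 2, 3 or 4 or Lcn2-/- LPS replicate 2 or 3 (0.058 to 0.12). Pcdh18 lost its call without wild type LPS replicate 2, 3 or 4 or Lcn2-/- LPS replicate 2 or 3 (0.050 to 0.093), and Pcdh19 without wild type LPS replicate 1, 2 or 3 or Lcn2-/- LPS replicate 2, 3 or 4 (0.056 to 0.12). Pcdh1 was also lost without the trend on the mean (0.054) and with GC content and length trends removed (0.066).

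The interaction asks whether the LPS difference itself varied with the genotype label. Pcdh1 was the only one of 64 protocadherins called, beside 8.82% of all tested genes (3.90% with a more positive and 4.92% with a more negative LPS difference). It fell by 0.25 in wild type and by 0.53 in mice labelled Lcn2-/-, and the difference between these was -0.28 ± 0.059 (SE, limma adjusted p = 0.013). This call was kept when each of the 16 libraries was left out in turn and under the other alternatives tried, with adjusted p between 0.0076 and 0.034. Pcdh1 averaged 18.3 RPKM after saline in mice labelled Lcn2-/- and 16.5 RPKM in wild type, and after LPS the order was the opposite, at 12.6 and 13.9 RPKM. For Pcdh18 the interaction was -0.39 ± 0.16 (SE, limma adjusted p = 0.13), with 95% limits of -0.74 and -0.042, and for Pcdh20 -0.19 ± 0.12 (SE, limma adjusted p = 0.29). No clustered gene was called, and 6 gamma genes and 1 beta gene, 13.2% of the 53, had an unadjusted p under 0.05 by limma, against 28.5% of all tested genes. Pcdhgc3 was among them at -0.12 ± 0.050 (SE, limma adjusted p = 0.13).

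Markers of several cell types and brain regions moved in the same comparisons as the unclustered genes. Their counts stand beside 11.4% of all tested genes called higher and 13.9% lower after LPS in wild type, and 20.7% and 27.7% in mice labelled Lcn2-/-. Of 7 endothelial markers, all above the filter, 4 were lower and 1 higher after LPS in wild type, and 5 lower in mice labelled Lcn2-/-. Their summed level was 78.0 to 87.3 RPKM in wild type saline libraries, 53.6 to 59.5 in wild type LPS, 64.6 to 77.3 in Lcn2-/- saline and 41.2 to 53.6 in Lcn2-/- LPS. Of 7 pericyte and smooth muscle markers, 4 were lower and 1 higher in wild type and 5 lower in mice labelled Lcn2-/-, with sums of 58.8 to 62.5, 45.2 to 51.4, 52.4 to 59.9 and 42.9 to 50.1 RPKM in the same order. Of 7 microglial markers, 5 were lower in wild type and 6 in mice labelled Lcn2-/-, with 1 higher under either label and sums of 71.7 to 75.8, 51.1 to 57.6, 68.5 to 77.9 and 49.5 to 54.9 RPKM. Of 7 meningeal fibroblast markers, 4 were lower and 1 higher under either label, while their sums overlapped in all 4 groups between 34.7 and 44.9 RPKM. The 10 neuronal markers gave 0 calls in wild type, and 2 higher and 1 lower in mice labelled Lcn2-/-. Of 6 interneuron markers, 1 was higher and 0 lower in wild type, and 2 were higher and 3 lower in mice labelled Lcn2-/-. Between the labels after LPS, 4 of 7 endothelial markers were lower in mice labelled Lcn2-/- (8.74% of all tested genes), and 3 of 7 were called with a more negative LPS difference in the interaction (4.92% of all tested genes).

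Markers of glia and of brain regions moved as well. Of 8 astrocyte markers, 4 were higher and 0 lower under either label. Of 7 oligodendrocyte markers, 3 were lower under either label, and 1 was higher in mice labelled Lcn2-/-. Of 6 markers of oligodendrocyte precursors, 3 were lower and 1 higher in wild type, and 1 was lower in mice labelled Lcn2-/-. Of 6 striatal markers, 1 was higher and 1 lower in wild type, whereas 4 were lower in mice labelled Lcn2-/-, with a median difference of -0.42, and 3 had a more negative LPS difference in the interaction. Their summed level was 114 to 116 RPKM in wild type saline libraries, 106 to 128 in wild type LPS, 122 to 128 in Lcn2-/- saline and 110 to 120.3 in Lcn2-/- LPS. Of 6 cerebellar and hindbrain markers, 0 were called in wild type, whereas 4 were higher and 1 lower in mice labelled Lcn2-/-, and 2 had a more positive LPS difference in the interaction. Their sums were 184 to 198, 180.3 to 199, 179.6 to 198 and 201 to 220.3 RPKM in the same order. Olfactory bulb markers, with 4 tested, gave 0 calls in wild type and 2 lower in mice labelled Lcn2-/-, where their median difference was -0.52. The interaction called 1 of them with a more negative LPS difference. The 6 cortical and hippocampal markers gave 2 higher and 1 lower in wild type, and 1 higher and 3 lower in mice labelled Lcn2-/-. Thalamic and midbrain markers gave 1 higher and 1 lower in wild type, and 1 higher in mice labelled Lcn2-/-. The part of these cell types and regions in the results for Pcdh1, Pcdh18, Pcdh20, Pcdh10, Pcdh11x and Pcdh19, the interaction of Pcdh1 included, was not tested.

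Pcdh12, the endothelial member, was too low to be tested and is given as a description. It gave -3.26, -3.98, -3.29 and -3.93 in wild type saline libraries and -5.76, -5.91, -6.32 and -5.42 after LPS. In mice labelled Lcn2-/- it gave -3.88, -4.34, -3.84 and -3.01 after saline and -4.89, -4.68, -4.74 and -4.89 after LPS. All LPS libraries were below all saline libraries. The whole low end of the distribution was also lower after LPS, with a 25th percentile over all genes of -5.78 to -4.58 in LPS libraries and -4.12 to -2.73 in saline libraries, so these values cannot be told apart from that shift. Cdh5, the classical cadherin of endothelial junctions, went the other way and rose by 1.21 ± 0.090 (SE, limma adjusted p = 4.3e-08) in wild type and by 1.99 ± 0.090 (SE, limma adjusted p = 6.9e-11) in mice labelled Lcn2-/-.

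Lists of genes that act with protocadherins gave the counts below, and the all-gene shares of 11.4% higher and 13.9% lower in wild type, and 20.7% and 27.7% in mice labelled Lcn2-/-, stand beside each of them. Shares near those values are no result about a list. Of 18 tested genes for promoter choice and chromatin at the clusters, 3 fell and none rose after LPS in wild type, and 4 rose and 8 fell in mice labelled Lcn2-/-. Their median differences were 0.015 and -0.11. By limma, 1 gene was higher in wild type at an unadjusted p under 0.05, the cohesin release factor Wapl at 0.12 ± 0.048. Dnmt3a, a de novo DNA methyltransferase, fell by 0.21 ± 0.052 and 0.43 ± 0.052 under the 2 labels. The cohesin subunit Stag1 rose by 0.31 ± 0.042 in mice labelled Lcn2-/-. Ctcf itself differed by 0.032 and -0.044 and was not called.

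Of 20 kinases and adhesion partners, 5 rose and 2 fell in wild type, and 3 rose and 5 fell in mice labelled Lcn2-/-, where 48.3% of all tested genes were called. Ptk2b, which encodes Pyk2, a kinase that clustered protocadherins inhibit, rose by 0.27 ± 0.056 in wild type, and Ptk2, the related focal adhesion kinase, rose by 0.21 ± 0.039 in mice labelled Lcn2-/-. Of 10 genes of the WAVE complex, which delta-2 protocadherins bind, 3 rose and 1 fell in wild type, and 2 rose and 4 fell in mice labelled Lcn2-/-. Wasf2 rose by 0.38 ± 0.052 and 0.19 ± 0.052, Abi1 by 0.22 ± 0.033 and 0.12 ± 0.033, and Brk1 fell by 0.20 ± 0.037 and 0.25 ± 0.037.

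Among other cadherins, 3 of 24 tested classical cadherins and catenins rose and 6 fell in wild type, and 6 rose and 5 fell in mice labelled Lcn2-/-, where 48.3% of all tested genes were called. Cdh11, a mesenchymal type II cadherin, fell by 0.49 ± 0.077 and 0.89 ± 0.077. Of 11 tested large and atypical cadherins, 4 fell and 0 rose under either label, with Fat1 down by 0.33 ± 0.064 and 0.45 ± 0.064. After saline, 0 genes of these 5 lists differed between the labels by limma's adjusted p, beside 0.0461% of all genes. After LPS, the Lcn2-/- label had 3 higher and 2 lower chromatin genes, 1 and 1 kinases and partners, and 0 and 1 WAVE genes. It had 1 and 2 classical cadherins and catenins, and 1 and 0 large cadherins (all genes 7.04% and 8.74%). The interaction called 1 more positive and 1 more negative chromatin gene, 1 and 0 kinases and partners, and 0 WAVE genes. It called 1 and 3 classical cadherins and catenins, and 1 and 0 large cadherins (all genes 3.9% and 4.92%).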

How the data were processed

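Total RNA was isolated from sonicated hemi-brain with on-column DNase treatment and sequenced from standard Illumina libraries, per the labels' protocols. The authors deposited 1 table of log2 RPKM after conditional quantile normalization, although its column names end in a word for counts. The build is mm10, per the submitters' processing notes; the aligner, the counter and the treatment of shared exons were not given in any source used. All 16 samples were used, grouped by genotype and injection label, and 0 columns of per-sample values were unused. Gene symbols and positions came from GENCODE vM21, which matched 32695 (98.2%) of 33289 identifiers and held 70 Pcdh genes, all found. Shared exonic bases were counted on the same annotation.

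The filter on low values kept genes with a log2 RPKM of -1 or more in 3 or more samples (17349 tested, 15940 removed). A group-means model over all 4 groups was fitted in R 4.3.3 with limma 3.58.1, and variances were moderated by empirical Bayes with a mean trend. Tests were two-sided, with Benjamini-Hochberg adjustment over all tested genes and calls at an adjusted p under 0.05. Intervals are 95%. The procedure was tested on simulated data. Alternatives were pseudocounts of 0.5 and 0.1 RPKM, no filter, a stricter filter, no trend, only the compared groups, median centring, removal of GC content and length trends, and each library left out. The p-values reflect only the spread between these samples, and the labels do not say whether samples were prepared in batches. Named genes were all unclustered and C-type members, and from each cluster up to 3 called members per direction, taken by size of change, and the uncalled member with the highest level; others named were chosen after their values were seen. From the other gene lists, only some called members were named, and these were not always those with the largest changes. Ctcf and Wapl were named without a call in the comparisons given for them. From the promoter choice and chromatin list, 1 gene is not reported here. The members, gene lists and tests were chosen with earlier results of these data known.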

Additional observations from a re-analysis of the deposited data

Results flagged for a closer look

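Of 92 combinations of a named protocadherin and a group of 4 libraries, 5 (5.43%) had a highest or lowest library far from the other 3 by Dixon's criterion, and chance gives about 1 in 20. Pcdhb15 stood at 0.27 in saline replicate 4 labelled Lcn2-/-, the library that stands apart, against -0.64 to -0.57 in the others. Pcdh17 stood at 3.00 in wild type saline replicate 2, the highest of its group. Pcdh8 stood at 1.58 in LPS replicate 4 labelled Lcn2-/-, the lowest of its group. Pcdhb20 stood at 1.11 in wild type LPS replicate 1, the lowest of its group, and Pcdhga5 at 6.40 in LPS replicate 1 labelled Lcn2-/-, the highest of its group.

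The LPS difference of Pcdh1 was larger in mice labelled Lcn2-/- than in wild type by the interaction test, at -0.28 on the log2 scale.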

How the results depend on the processing

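In wild type, the count of protocadherins lower after LPS lay between 3 and 4 with each library left out, and that of higher ones stayed at 0. In mice labelled Lcn2-/-, 13 were lower and 1 higher. Without the trend on the mean the counts were 6 lower and 2 higher, with only the compared groups 3 lower, and with GC content and length trends removed 4 lower and 3 higher. Leaving out each library gave 4 to 14 lower and 1 to 2 higher. Between the labels after LPS, no filter gave 0 lower and 0 higher, and no trend and the removal of GC content and length trends gave 1 lower each. Leaving out each library gave 0 to 2 lower and 0 to 1 higher. After saline every setting gave 0, and the interaction kept 1 lower gene, Pcdh1, throughout. The cause of these changes was not tested. Among single protocadherins over the settings that keep all libraries, 738 values kept direction and side of the threshold, 9 changed sign where neither value was called, 20 lost and 5 gained a call, and no called value reversed; with a library left out the counts were 809, 84, 45 and 6.

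Over all genes, lower calls without the filter were 11480 of 33289 in wild type and 13898 of 33289 in mice labelled Lcn2-/-. With the filter they were 2409 and 4798 of 17349. The median difference of all genes moved to -0.22 and -0.32 without the filter. In that setting, 6 of 70 protocadherins were lower in wild type and 17 of 70 in mice labelled Lcn2-/-, smaller shares than those of all genes. Pcdh12 and Pcdhb1 were also called in both, and Pcdhb2 and Pcdhgc3 in mice labelled Lcn2-/-. Removing GC content and length trends turned the split of calls in wild type to 2418 higher and 1980 lower, from 1980 and 2409; in mice labelled Lcn2-/- to 4438 and 4060, from 3588 and 4798; and between the labels after LPS to 1484 and 1351, from 1222 and 1517. No paired analysis was possible because the sample numbers in the titles run through all 16 samples and pair none. Depth is unknown, which limits the beta genes and Pcdh12 most.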
